A study of Mus musculus with 81 samples.

Results

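Open H3K4me3 regions without RBPJ are stretches of accessible chromatin in a mouse T cell line that met a listed region of histone H3 trimethylated at lysine 4 (H3K4me3) and no listed region of the transcription factor RBPJ. The regions were chosen by measured overlaps alone, so open chromatin, H3K4me3 and RBPJ are no findings about them. They were taken from the list of ATAC-seq regions of the control line, by an overlap of at least 1 bp with the H3K4me3 list and by no overlap with either RBPJ list. There were 23648 such regions, 49.5% of the 47748 open regions in all and 85.6% of the 27618 open regions that met H3K4me3. The remaining 3970 open H3K4me3 regions met RBPJ, and they are the set most like the RBPJ-free regions. Another 20005 open regions met neither H3K4me3 nor RBPJ.

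The cells were a hybridoma of mature T cells, a line made by fusion that carries a T cell receptor programme in culture. Accessibility was listed for the control line of a CRISPR experiment against Rbpj (Control_sgRbpj, 3 ATAC-seq replicates in the labels). RBPJ was listed from ChIP-seq in that control line (3 replicates) and in cells carrying BioNICD1_WT, the wild-type form of a Notch1 intracellular domain construct (2 replicates). Of the 3970 open H3K4me3 regions with RBPJ, 543 met the list of the control line only, 2271 the BioNICD1 list only and 1156 both. A region called with RBPJ was thus often not listed for RBPJ in the control line. The lists of H3K4me3, H3K27ac and H3K4me1 name no line, and the series holds these marks both in line sgRbpj_2-12, depleted of RBPJ, and in the control line, with 2 replicates each, so a list may pool depleted and control cells. RNA was used from the depleted lines sgRbpj_2-12 and sgRbpj_2-14 and from the control line, with 2 libraries per line. The labels do not say whether an edited line is a single clone, nor whether replicates are separate cultures.

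H3K4me3 is known for its place at the starts of active genes, where a stretch free of nucleosomes exposes the DNA to transcription factors. H3K27ac, acetylation of lysine 27, marks active promoters and enhancers, and H3K4me1, monomethylation of lysine 4, is typical of enhancers and of the shoulders of promoters. RBPJ is the DNA-binding protein of the Notch pathway, which recruits corepressors when Notch is silent and the Notch intracellular domain when the receptor is cleaved.

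Each mark came as 1 list of start and end positions on mouse build mm9, with no height, no p-value and no replicates. Differences between sets of regions therefore have no test and are given as descriptions. Intervals are 95% Wilson intervals that cover counting error only, since neighbouring regions are not independent. Regions were not assigned to genes or sequences here because the annotation used is of another build. Whether an RBPJ-free region lies at the start of a gene was not determined. Absence from an RBPJ list does not show absence of the protein: with the list of the control line alone as the criterion, 25919 open H3K4me3 regions would count as RBPJ-free.

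The RBPJ-free regions were mostly acetylated. H3K27ac overlapped 19690 of them, 83.3% (82.8 to 83.7%), against 98.5% (98.1 to 98.8%) of the open H3K4me3 regions with RBPJ, 25.7% of the open regions outside H3K4me3 and 60.3% of all open regions. H3K4me1 overlapped 17260 of the RBPJ-free regions, 73.0% (72.4 to 73.5%), against 53.1% (51.5 to 54.6%) of those with RBPJ and 66.9% of all open regions. So the RBPJ-free regions carried H3K27ac less often and H3K4me1 more often than those with RBPJ.

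The marks combined in 4 ways among the RBPJ-free regions. Both H3K27ac and H3K4me1 met 14226 of them (60.2%), against 51.7% of the regions with RBPJ. H3K27ac without H3K4me1 met 5464 (23.1%), against 46.8% with RBPJ. H3K4me1 without H3K27ac met 3034 (12.8%), against 1.36% with RBPJ, and 924 regions (3.91%) met neither mark, against 6 regions (0.151%) with RBPJ. H3K4me3 without H3K27ac in open chromatin was thus a larger share of the RBPJ-free set.

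The 4 states differed in size. Median length was 932.5 bp for RBPJ-free regions with H3K27ac alone, 865 bp with both marks, 631 bp with H3K4me1 alone and 520 bp with neither. The H3K4me3 region beneath them followed the same order, with medians of 1798, 1313, 830.5 and 769 bp. Regions with H3K27ac alone also stood closest to their neighbours, with a median of 4.86 kb to the next open region, against 6.40 kb with both marks, 8.58 kb with neither and 9.38 kb with H3K4me1 alone.

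The sets also differed in H3K4me1 at the very centre of the open region. The centre lay inside an H3K4me1 region in 44.8% of the RBPJ-free regions, against 7.86% of those with RBPJ and 45.9% of all open regions. At 500 bp from the centre (mean of both sides) these shares were 52.3% without RBPJ and 23.7% with RBPJ. At 1500 bp the order was turned, with 26.9% without RBPJ and 43.7% with RBPJ. Around regions with RBPJ the H3K4me1 list thus showed a pair of shoulders beside a mostly bare centre, while around all RBPJ-free regions the dip at the centre was shallow. These distances run from the centre, and regions with RBPJ were longer (median 1269 against 816 bp). Counted from the region edges, H3K4me1 lay within 2000 bp on both sides of 68.5% without RBPJ and 71.3% with RBPJ. Flanks with H3K4me1 were thus similarly frequent in both sets.

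**Figure D1:**
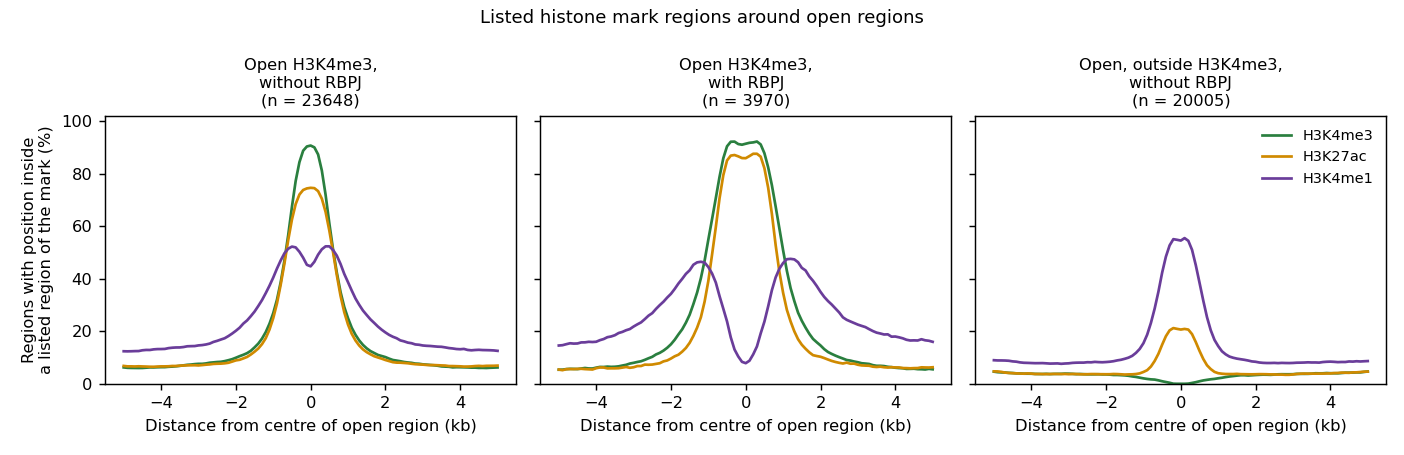
Share of regions whose position at a given distance from the centre (x axis, kb) falls inside a listed region of H3K4me3, H3K27ac or H3K4me1 (y axis, %), for open H3K4me3 regions without RBPJ, with RBPJ, and open regions outside H3K4me3 without RBPJ. H3K4me1 covers 44.8% of the centres without RBPJ and 7.86% of those with RBPJ. The mark's shoulders lie farther from the centre with RBPJ, where the open regions are also longer.

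H3K4me3 and H3K27ac also covered fewer positions at 1000 bp from the centre without RBPJ. The RBPJ-free regions were shorter (median 816 against 1269 bp) and met H3K27ac less often (83.3 against 98.5%). The part of either in this was not tested. H3K4me3 covered the centre in 90.8% of the RBPJ-free regions and in 91.5% of those with RBPJ, which the overlap rule partly fixes. At 1000 bp from the centre it covered 26.0% without RBPJ and 52.9% with RBPJ. H3K27ac covered 74.7% of the centres without RBPJ and 86.0% with RBPJ, and at 1000 bp it covered 23.8% without RBPJ and 36.9% with RBPJ. By 5000 bp both marks were at similar low levels, with 6.23% without RBPJ against 5.44% with RBPJ for H3K4me3, and 6.87% against 5.86% in the same order for H3K27ac.

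The RBPJ-free regions were next split by H3K4me1 at the centre. In 13063 of them (55.2%) the centre lay outside H3K4me1, and in 10585 (44.8%) it lay inside. Among the 3970 regions with RBPJ, it lay inside in 312. The split fixes H3K4me1 at 0 or 100% at the centre, so a higher or lower share beside the centre follows from it and shows no shape of its own. With the centre inside, H3K4me1 covered 79.9% of positions at 500 bp and 42.0% at 1000 bp, against 30.0% and 37.7% with the centre outside.

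**Figure D2:**
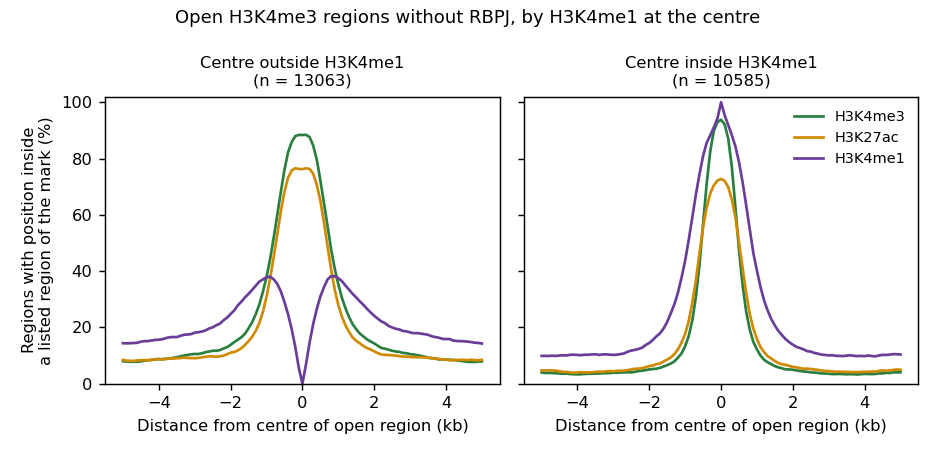
Open H3K4me3 regions without RBPJ, split by whether the centre lies outside or inside an H3K4me1 region; axes as distance from the centre (kb) and share of regions inside each listed mark (%). The split fixes H3K4me1 at 0 and 100% at the centre, while H3K4me3 at 1000 bp is at 36.6% for centres outside H3K4me1 and at 12.8% for centres inside it.

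The regions on either side of the split differed in length and in the other marks. With the centre inside H3K4me1, the median open length was 713 bp (quartiles 536 and 938 bp), against 942 bp (640 and 1259 bp) with the centre outside. The H3K4me3 region beneath had a median width of 1070 bp with the centre inside and 1568 bp with the centre outside, and it exceeded 2 kb in 7.78% and 30.8% of regions in that order. H3K27ac overlapped 76.2% with the centre inside and 89.0% with the centre outside. H3K4me1 lay within 2000 bp on both sides of 87.3% of regions with the centre inside and of 53.3% with the centre outside. The split partly fixes this too, since an H3K4me1 region over the centre can reach past the edges of the open region. Regions without any H3K4me1 in either flank made up 16.8% of the RBPJ-free regions whose centre lay outside the mark, against 2.27% of such regions with RBPJ.

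RBPJ-free regions were shorter than those with RBPJ and longer than open regions outside H3K4me3. Their median length was 816 bp (quartiles 580 and 1126 bp, range 230 to 5728 bp), against 1269 bp (1050 and 1536 bp) with RBPJ and 483 bp (408 and 602 bp) outside H3K4me3. Length bears on the rule, because a longer region meets an overlap of 1 bp more easily.

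**Figure D3:**
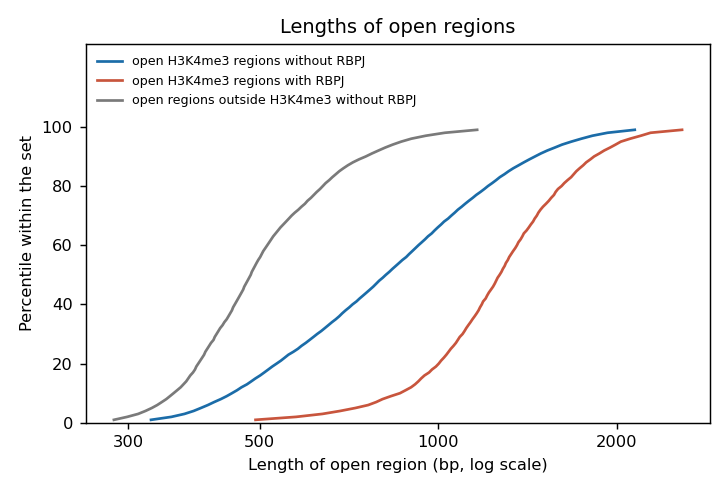
Length of open regions (x axis, bp, log scale) at each percentile of its set (y axis) for open H3K4me3 regions without RBPJ, with RBPJ, and open regions outside H3K4me3 without RBPJ. The medians are 816, 1269 and 483 bp, and the set with RBPJ stays longest and the set outside H3K4me3 shortest between the 1st and 99th percentile.

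The share of open H3K4me3 regions that were RBPJ-free fell with length. It was 98.7% of 1234 regions under 400 bp, 96.0% of 5242 regions of 600 to under 800 bp, 89.8% of 4662 regions of 800 to under 1000 bp and 62.0% of 600 regions of 2000 bp or more. Even among the longest open regions with H3K4me3, most were therefore without listed RBPJ.

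Differences in marks between regions without and with RBPJ were also seen within most length classes, and were smaller for H3K27ac in long regions. At 600 to under 800 bp H3K27ac overlapped 77.3% of regions without RBPJ and 90.4% with RBPJ, and at 1500 to under 2000 bp it overlapped 98.6% without RBPJ and 99.9% with RBPJ. The centre lay inside H3K4me1 in 56.8% without RBPJ and 24.9% with RBPJ at 600 to under 800 bp, in 47.9% and 12.6% at 800 to under 1000 bp, and in 18.7% and 3.75% at 1500 to under 2000 bp, in the same order. Under 400 bp the shares were 51.6% without RBPJ and 50.0% with RBPJ, but only 16 regions with RBPJ were that short.

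Reweighting the RBPJ-free regions to the lengths of those with RBPJ, over 8 length classes, moved their share with H3K27ac to 93.7%, against 98.5% with RBPJ. Their share with the centre inside H3K4me1 moved to 30.3%, against 7.86% with RBPJ. H3K27ac at the centre came to 86.2%, against 86.0% with RBPJ, but single length classes differed in opposite directions. At 600 to under 800 bp H3K27ac covered the centre in 69.3% without RBPJ and 74.6% with RBPJ. At 1500 to under 2000 bp the shares were 90.0% without RBPJ and 87.6% with RBPJ. H3K4me3 regions over 2 kb lay beneath 34.4% of the reweighted RBPJ-free regions, against 48.4% of those with RBPJ.

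**Figure D4:**
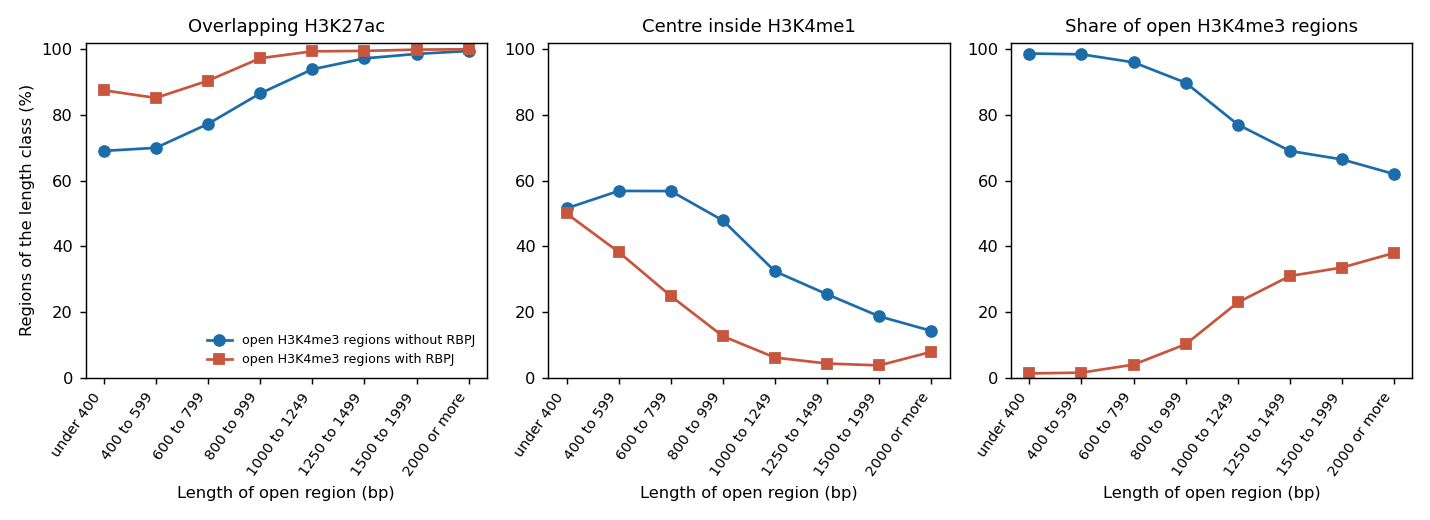
Shares by length class of the open region (x axis, bp): overlap with H3K27ac, centre inside H3K4me1, and share of all open H3K4me3 regions (y axes, %), for regions without and with RBPJ. H3K27ac rises with length in RBPJ-free regions to 99.5%, H3K4me1 at the centre falls to 14.2% in the longest class, and the RBPJ-free share of open H3K4me3 regions falls to 62.0%.

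RBPJ-free regions lay on 23626 of the 42879 listed H3K4me3 regions (55.1%). Another 14903 H3K4me3 regions (34.8%) met no open region, and 4350 met open regions with RBPJ only. H3K4me3 regions with at least 1 RBPJ-free region had a median width of 1215 bp, against 1759 bp for those with open regions with RBPJ only and 684 bp for those without any open region. Most, 22310, held a single RBPJ-free region, at a median width of 1181 bp. The width was 2156 bp for the 1240 that held 2 and 4611 bp for the 73 that held 3.

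RBPJ-free regions on wide H3K4me3 regions met H3K27ac more often and, above a width of 500 bp, had H3K4me1 at the centre less often. H3K27ac overlapped 54.8% of the RBPJ-free regions on H3K4me3 regions under 500 bp, 63.3% at 500 to under 1000 bp, 87.4% at 1000 to under 1500 bp and 96.7% at 1500 to under 2000 bp. H3K4me1 covered the centre of 41.7% under 500 bp, 67.6% at 500 to under 1000 bp, 53.7% at 1000 to under 1500 bp and 10.9% at 3000 bp or more. The RBPJ-free share of open H3K4me3 regions was 96.9% at 500 to under 1000 bp and 70.5% at 3000 bp or more.

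The H3K4me3 region with the most RBPJ-free regions was also the widest of the list. It spans chr12:55284043-55306285 (mm9, 22243 bp) and held 7 open regions, none of which met RBPJ, with 85.4% of its length inside H3K27ac and 16.3% inside H3K4me1. The next, chr1:140053890-140073163 (19274 bp), held 5, again with no RBPJ, and was covered to 99.97% by H3K27ac. Another, chr13:63663738-63670420 (6683 bp), held 4, and 49.6% of its length was open, against 20.3% of the chr12 region and 16.1% of the chr1 region.

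Many RBPJ-free regions sat wholly within H3K4me3. Full cover was found for 12033 (50.9%), against 59.9% of those with RBPJ, and less than 50% cover for 1871 (7.91%), against 2.14% with RBPJ. In 3953 (16.7%) the H3K4me3 region was narrower than the open region itself. Of all RBPJ-free regions, 1333 (5.64%) met more than 1 H3K4me3 region, and in 575 of these (43.1%) the centre lay outside H3K4me3. With RBPJ, 692 regions (17.4%) met more than 1, and 278 of them (40.2%) had the centre outside H3K4me3. Open regions that met more than 1 H3K4me3 region were thus a smaller share of the RBPJ-free set. That set was also shorter, at a median of 816 bp against 1269 bp with RBPJ, and the part of length in this was not tested.

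The longest RBPJ-free region, chr17:39980005-39985732 (5728 bp), was covered to 99.8% by H3K4me3 and met neither H3K27ac nor H3K4me1. The lists were used as given, without a filter for repeated sequence. Whether the signal at chr17:39980005-39985732 comes from repeats was not determined. The next in length behaved otherwise: chr13:21923286-21927114 (3829 bp) and chr13:21900648-21904317 (3670 bp) each met 3 H3K4me3 and 3 H3K27ac regions, the first with no H3K4me1 and the other with 3 regions of it, and lay 80.8 and 58.2 kb from RBPJ. The other 2 of the longest 5, chr13:114510576-114514130 (3555 bp) and chr17:47873839-47877290 (3452 bp), met both H3K27ac and H3K4me1.

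Few regions lay within 100 bp of the edge of the overlap rule. Of the RBPJ-free regions 335 shared under 100 bp with H3K4me3 and 18 under 10 bp, the smallest being 1 bp at chr1:26410921-26411220, at chr11:85104818-85105223 and at chr2:10209925-10210796. Just outside, 174 open regions without RBPJ lay within 100 bp of H3K4me3, and 18 within 10 bp. The nearest, at chr10:21922482-21923037, chr15:74947821-74948414 and chr19:53059978-53060324, touched an H3K4me3 region without sharing a base. On the side of RBPJ, 3 RBPJ-free regions lay within 100 bp of an RBPJ region, the nearest 14 bp away at chr5:32113125-32114321, while 12 open H3K4me3 regions shared under 100 bp with RBPJ.

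Proximity to RBPJ varied widely. An RBPJ region lay within 1 kb of 199 RBPJ-free regions (0.842%), within 10 kb of 7.79% and within 100 kb of 51.0%. For open regions outside H3K4me3 without RBPJ these shares were 0.155, 6.47 and 46.9%. The median distance was 96.6 kb, against 112 kb outside H3K4me3. RBPJ-free regions with H3K27ac alone had RBPJ within 10 kb in 9.77%, against 8.06% with both marks, 4.22% with H3K4me1 alone and 3.57% with neither. An H3K4me3 region was shared with an open region that met RBPJ by 324 RBPJ-free regions (1.37%). The farthest, chr8:40068641-40069782, was 6.99 Mb from RBPJ, and it met both H3K27ac and H3K4me1.

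RBPJ-free regions were more often close to another open region. The next open region lay within 1 kb of 14.3%, against 8.61% of those with RBPJ and 5.92% of the open regions outside H3K4me3. The median distance to it was 6331 bp without RBPJ, against 8376 bp with RBPJ and 8948 bp outside H3K4me3.

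Across the 20 chromosomes with at least 100 open regions, the RBPJ-free share of open regions ran from 45.4% on chromosome 19 to 59.0% on chromosome 8, with a median of 48.9% and 54.9% on chromosome X, the next highest. Chromosome 8 was also lowest for RBPJ: 100 of its 1300 open H3K4me3 regions met RBPJ, 7.69%, against 9.59% on chromosome 14, the next lowest, a median of 13.7% and 18.3% on chromosome 7. Chromosome 8 was lowest by either RBPJ list, with 1.92% for the control line (next 3.74%, on chromosome 13) and 7.38% for BioNICD1 (next 8.24%, on chromosome 14). At the series' share per length class 13.1% of its regions would have met RBPJ, a ratio of 0.588, against 0.716 on chromosome 14 and a median of 0.941.

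Chromosomes 8 and X also had the most H3K4me3 regions for their open regions. There were 1.05 listed H3K4me3 regions per open region on chromosome 8 and 1.34 on chromosome X, against a median of 0.864. H3K4me1 lay at the centre of 35.1% of the RBPJ-free regions on chromosome 8 and of 31.7% on chromosome X, the lowest values, against a median of 43.3% and 57.2% on chromosome 15. H3K27ac varied little, from 78.8% on chromosome 3 to 85.7% on chromosome 9. The part of list density in these shares was not tested.

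**Figure D5:**
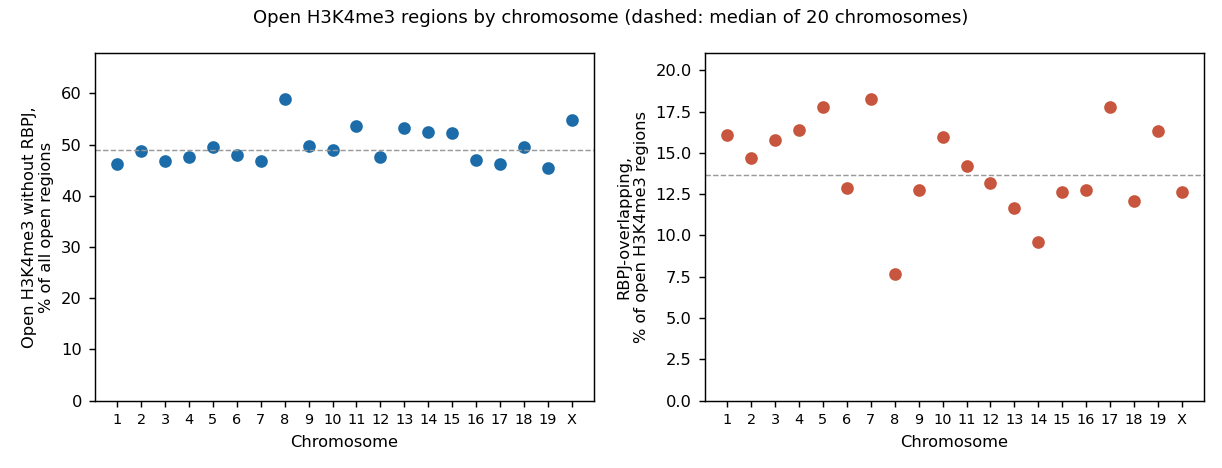
Open H3K4me3 regions without RBPJ as a share of all open regions (left, %) and RBPJ-overlapping regions as a share of open H3K4me3 regions (right, %) for each chromosome; dashed lines are medians. Chromosome 8 is highest on the left (59.0%) and lowest on the right (7.69%).

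The cell type and the depletion were checked in RNA. T cell markers summed to 941 and 904 CPM in the control libraries, with Cd3d, Cd3e and Cd3g, which encode chains of the T cell receptor complex, each above 100 CPM. The coreceptor gene Cd4 was at 0.841 and 2.29 CPM, and Cd8a and Cd8b1 had 0 counts. B cell, myeloid and fibroblast lists summed to at most 1.04 CPM, and the erythroid list to at most 13.3 CPM. Rbpj was at 44.1 and 31.4 CPM in line 2-12 and at 59.5 and 41.8 CPM in line 2-14, against 182 and 133 CPM in the control line, without overlap (log2 fold change −1.85, SE 0.211, edgeR adjusted p = 0.0043).

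Genes of H3K4 methylation, of any degree, were measured in the same libraries. H3K4 is methylated by the MLL and SETD1 enzymes (Kmt2a, Kmt2b, Kmt2c, Kmt2d, Setd1a, Setd1b) with the shared subunits Ash2l, Wdr5, Rbbp5 and Dpy30, the CpG-binding subunit Cxxc1 and the menin gene Men1. Of these 12 genes 0 passed edgeR's adjusted threshold on depletion, against 9.89% of the 11566 genes tested, 6.21% up and 3.68% down. Unadjusted p was under 0.05 for 3 of the 12, against 29.8% of all genes tested. DESeq2 called 0 of the 12, against 1235 of the 11898 genes it gave an adjusted p, or 10.4%. Their median log2 fold change was 0.12, against −0.0045 over all genes tested. With the replicate number as a block 4 of the 12 were called, near the 36.8% of all genes called in either direction. All 4 were upward, and the upward share of all genes with the block is not given here. Leaving out control replicate 2 called 2 of the 12, and the calls over all genes, 1144, were then 2511, against 379 without control replicate 1. Of 10 general transcription genes, the RNA polymerase II subunits Polr2a and Polr2b among them, 0 passed as well, at a median log2 fold change of 0.02. Unadjusted p was under 0.05 for 3 of these 10, DESeq2 called 1 and the block 4, against the same shares of all genes. With the block Polr2a and Med1 were called upward, at log2 fold changes of 0.84 and 0.32. Polr2b and Taf1 were called downward, at −0.35 and −0.29.

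Kmt2a, the MLL1 gene, was at 249 and 149 CPM in line 2-12 and at 210 and 152 CPM in line 2-14, against 135 and 112 CPM in the control line. The groups did not overlap, at a log2 fold change of 0.63 (SE 0.24, edgeR adjusted p = 0.142; with the block 0.58, adjusted p = 0.00308). Kmt2d, an enzyme of enhancer monomethylation, was at 329 and 157 CPM in line 2-12 and at 297 and 175 CPM in line 2-14, against 156 and 129 CPM in the control line. Its log2 fold change was 0.75 (SE 0.34, edgeR adjusted p = 0.192; with the block 0.66, adjusted p = 0.00665). In both genes replicate 1 was the higher in every line, and replicate 1 had the fewer counts in every line. Kmt2b and Ash2l were the others called with the block, at log2 fold changes of 0.51 and 0.27 (edgeR adjusted p = 0.00686 and 0.0221). The other 8, Setd1a, Setd1b and Kmt2c among them, were not called in either of these fits.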

How the data were processed

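The deposited region lists hold start and end positions on mm9 and a score column that is 0 on every line, so regions could not be ranked. The RBPJ list of the control line is separated by commas and was read as such. The submitters' processing notes name TopHat2 2.1.1, Picard, deepTools and mm9 without roles; the peak caller and the handling of replicates are not given in the sources used here. Entries of a list do not overlap. Overlap means at least 1 shared bp, the centre is the midpoint of the open region, and positions are printed 1-based. Interval functions were tested on simulated data. Wilson intervals and medians were computed in Python 3.11.15 with scipy 1.17.1.

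The authors deposited raw counts for 24391 gene symbols; 6 columns were used and 59 of the 65 were not used here. Totals ran from 2377028 to 5998832 counts, where 3 counts are 0.500 to 1.26 CPM. Lines 2-12 and 2-14 (their mean) were compared with the control line in edgeR 4.0.16 (TMM, filterByExpr, quasi-likelihood F-test, two-sided, Benjamini-Hochberg over 11566 genes, threshold 0.05); DESeq2 1.42.0 was an alternative. The test was tried on simulated counts. Libraries with the same replicate number deviated together (r = 0.433 to 0.608 across genes, for numbers given in the titles), so blocked values are given where they change a call; with 2 libraries per line these correlations take few distinct values. P-values measure the spread between libraries within a line, which may be technical, and not the spread between lines.

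Regions named are the longest, those at the edges of the rule, those nearest to and farthest from RBPJ, and the H3K4me3 regions with the most members. The members and lists were chosen with earlier results of these data known. Genes were not assigned to regions, since the annotation used is GRCm38, and the planned count of called genes at these regions was not made.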

Additional observations from a re-analysis of the deposited data

How the results depend on the processing

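The number of open H3K4me3 regions without RBPJ stayed within 1.5 times of 23648 under the 5 other rules, from 19158 with open and histone regions of at least 500 bp to 25919 with the RBPJ list of the control line alone. The share with H3K27ac was 76.9% where the mark had to cover at least 50% of the open region, 74.7% where it had to cover the centre and 84.5% with regions of at least 500 bp. The share with H3K4me1 was 49.1, 44.8 and 68.4% under those rules. Median length was 839 bp with H3K4me3 over at least 50% of the open region, 834 bp with H3K4me3 over the centre and 916 bp with regions of at least 500 bp, which by construction leaves out short ones; the width of H3K4me3 beneath was then 1329 bp. Without RBPJ within 1 kb, H3K27ac was at 83.2%, H3K4me1 at 73.1% and the median length at 818 bp.

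The RNA alternatives were added after seeing the data. Each library was also left out in turn, which left 1 library in its line. Of the H3K4 methylation genes 4 were called with the replicate block, against 36.8% of all genes, and 3 without a filter on low counts. Of 10 general transcription genes 0 were called, against 9.89% of all genes (3 at an unadjusted p under 0.05, against 29.8%). DESeq2 called 1 of these 10, against 10.4% of all genes, and the replicate block 4, against 36.8%. Without the filter 2 of these 10 were called. Calls over all genes came to 2671 without the filter, and their share is not given here. The cause of the differences between settings was not tested. Calls over all genes ran from 379 without control replicate 1 to 2511 without control replicate 2, and came to 4260 with the block and 2671 without the filter. Rbpj fell and passed in all 9 alternatives (edgeR or DESeq2 adjusted p at most 0.0376). Counts of genes at these regions were not run. The shallowest control library had 2377028 counts, and the part of depth in these calls was not tested. The region lists hold no depth.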
